A study of Mus musculus with 4 samples.

Results

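A set of 10 genes for secreted acute-phase and antimicrobial proteins were followed in cultured mouse macrophages. They are Orm1, Orm2 and Orm3 (orosomucoids), Saa3 (serum amyloid A3), Hp (haptoglobin), Lcn2 (lipocalin-2), S100a8 and S100a9 (the calprotectin subunits), Chil3 (a chitinase-like protein) and Slpi (a secreted protease inhibitor). These 10 of the 21878 genes in the count table were picked by name from results of this same comparison, because Orm1 and Orm3 were higher and S100a9 was lower in the anti-Act1-labelled libraries. Their group differences are therefore given as a description, without a test. All 10 had enough counts to be among the 12494 genes fitted, and Orm3 passed that filter only through the anti-Act1-labelled libraries, in which it is higher.

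RNA was sequenced from bone marrow-derived macrophages of C57BL/6 mice, aged 8 weeks in the labels, that had been differentiated with M-CSF, the main growth factor of macrophages. One group was wild type (WT) and the other came from anti-Act1 mice, described as a macrophage-specific knockdown of Act1, the adaptor protein of IL-17 receptors. The construct and the promoter behind the knockdown are not given in the sources used here. All macrophages shared a well with MC38 cells, a mouse colon cancer line held in an insert with pores, for 48 h in the labels and for a shorter time in a legend of the study. There was no group without MC38 cells, so only the difference between the labelled groups can be read. Each group had 2 libraries, described as biological replicates, with 55435063 to 75062945 counts. An exact permutation test of one gene in 2 against 2 libraries cannot go below p = 0.333, so tests of other genes come from the edgeR model across all genes.

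The labels were checked on several genes. Traf3ip2, the gene of Act1, was at 6.98 and 7.54 CPM in the WT-labelled libraries and at 9.63 and 7.84 CPM in the anti-Act1-labelled ones (edgeR log2 fold change 0.27 ± 0.12 SE, adjusted p = 0.117). CPM are counts relative to the library total after TMM normalization (the usual CPM scale). Traf3ip2 RNA was therefore not lower in the anti-Act1-labelled libraries, and every direction below rests on the labels. Without anti-Act1 replicate 2 it passed, at 0.41, in the direction of a higher level. The study reports reduced Act1 expression in bone marrow-derived macrophages of anti-Act1 mice, in a separate measurement. Its legend does not say whether RNA or protein was measured. The Y-linked genes Ddx3y, Eif2s3y, Uty and Kdm5d had 2248 to 7360 counts in each WT-labelled library and 0 or 1 in each labelled anti-Act1, so a difference in the sex of the mice and the genotype cannot be told apart. Csf1r, the M-CSF receptor that defines macrophages, was at 2251 to 2442 CPM in all 4 libraries. Of 12 epithelial markers, which the tumour cells could carry, Krt8, Krt18, Krt20, Cldn3, Cldn4 and Cdx2 were at 0 in every library, and the 12 together reached 0.330 to 0.907 CPM.

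Acute-phase proteins are released during inflammation, mostly by the liver, and several are also made by macrophages. Orosomucoids bind drugs and lipids in plasma, haptoglobin captures free haemoglobin, serum amyloid A proteins bind lipoproteins and retinol, and lipocalin-2 keeps iron from bacteria by binding their siderophores. S100a8 and S100a9 proteins pair as calprotectin, which withholds zinc and manganese from microbes and is abundant in neutrophils and monocytes. SLPI inhibits neutrophil elastase, and Chil3, also called Ym1, is a marker of alternatively activated mouse macrophages.

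The 3 orosomucoid genes lie close together on chromosome 4 of GRCm38.p6, with Orm1 at chr4:63344556-63348163, Orm3 at chr4:63356069-63359506 and Orm2 at chr4:63362449-63365877. The annotated gene Gm11212 lies between Orm1 and Orm3, and none between Orm3 and Orm2. Their coding sequences, taken from GENCODE M21, are 89.9% identical between Orm1 and Orm2, 86.1% between Orm1 and Orm3 and 88.0% between Orm2 and Orm3. The first 60 coding bases are shown 5′ to 3′ because the 12 positions at which the 3 genes differ there, in capitals, are the kind of bases by which a read is assigned to one copy.
Orm1: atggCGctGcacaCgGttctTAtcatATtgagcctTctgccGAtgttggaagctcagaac
Orm2: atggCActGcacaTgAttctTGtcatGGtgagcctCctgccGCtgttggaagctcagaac
Orm3: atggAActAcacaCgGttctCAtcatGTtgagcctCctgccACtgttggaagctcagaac
The longest stretch shared without a difference was 141 bases between the transcripts of Orm1 and Orm2, 65 between Orm1 and Orm3 and 75 between Orm2 and Orm3. Of all stretches of 50 bases in Orm1, 20.4% also occur in Orm2 and few in Orm3, while of stretches of 150 bases, the length of 1 read, 0 occur in either. How the counting treated reads that match more than one copy is not given in the sources used here, so some uncertainty remains for the low values of Orm2 and Orm3.

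The genes of calprotectin lie 22595 bases apart on chromosome 3, S100a8 at chr3:90669071-90670034 on the plus strand and S100a9 at chr3:90692630-90695721 on the minus strand, with no annotated gene between them. Their coding sequences are 48.0% identical over the alignment and share no run longer than 10 bases, so their reads are easily told apart. The 150 bases before each start are shown 5′ to 3′ on the strand of the gene, from RefSeq (GRCm38.p6), because these neighbours differed in opposite directions. Capitals mark a TATAAA element in S100a8 (chr3:90668921-90669070) and a match to the C/EBP letters TTNNGNAAT on the reverse strand in S100a9 (chr3:90695722-90695871).
S100a8: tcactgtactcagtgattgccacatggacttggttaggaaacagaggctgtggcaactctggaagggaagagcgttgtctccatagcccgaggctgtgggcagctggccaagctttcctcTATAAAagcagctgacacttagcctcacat
S100a9: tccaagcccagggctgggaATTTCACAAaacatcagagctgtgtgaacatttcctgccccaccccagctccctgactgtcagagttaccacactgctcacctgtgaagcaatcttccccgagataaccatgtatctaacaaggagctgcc
Windows from 250 bases before to 50 after the start were listed for 8 of the 10 genes, all but Orm1 and Hp. C/EBP proteins, which drive many acute-phase genes, bind such letters, and TTNNGNAAT on either strand was found in 4 of the 8 (Slpi, S100a9, Chil3, Orm2) and in 11.5% of all 32851 windows. The STAT letters TTCNNNGAA were in 1 of 8 (Chil3) against 8.30% of all windows, and the kappaB letters GGGNNTTCC in 0 of 8 against 5.82%. TATAAA on the strand of the gene was in 5 of 8 (S100a8, S100a9, Chil3, Orm3, Orm2) against 8.32%. Relative to the start, the match began at −30 in S100a8, −29 in Orm3 and −33 in Orm2. In Chil3 it began at −3 and in S100a9 at 1, outside the bases shown for S100a9. A match to such letters is a description of the window and no evidence of binding, and the absence of one covers only these letters in these windows.

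Levels were compared between genes in the deposited FPKM, which are counts divided by gene length and by the library total. Saa3 was the highest of the 10 at a mean of 280 FPKM over the 4 libraries, above 99.0% of genes listed. Hp followed at 30.2 FPKM, Slpi at 17.8, S100a8 at 12.1 and Orm1 at 8.53 FPKM. S100a9 was at 2.22 FPKM, Lcn2 at 1.08, Chil3 at 0.487, Orm2 at 0.274 and Orm3 at 0.114 FPKM. The same order was found within each group. The library ranges of neighbours overlapped for Slpi and S100a8, S100a8 and Orm1, S100a9 and Lcn2, and Chil3 and Orm2, and were separate for the 5 other neighbouring pairs. The place of Orm3 depends on its length, since the deposited FPKM imply 1983 bases where its GENCODE transcript has 773, and with 773 its mean would be 0.292 FPKM beside 0.273 for Orm2.

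**Figure D1:**
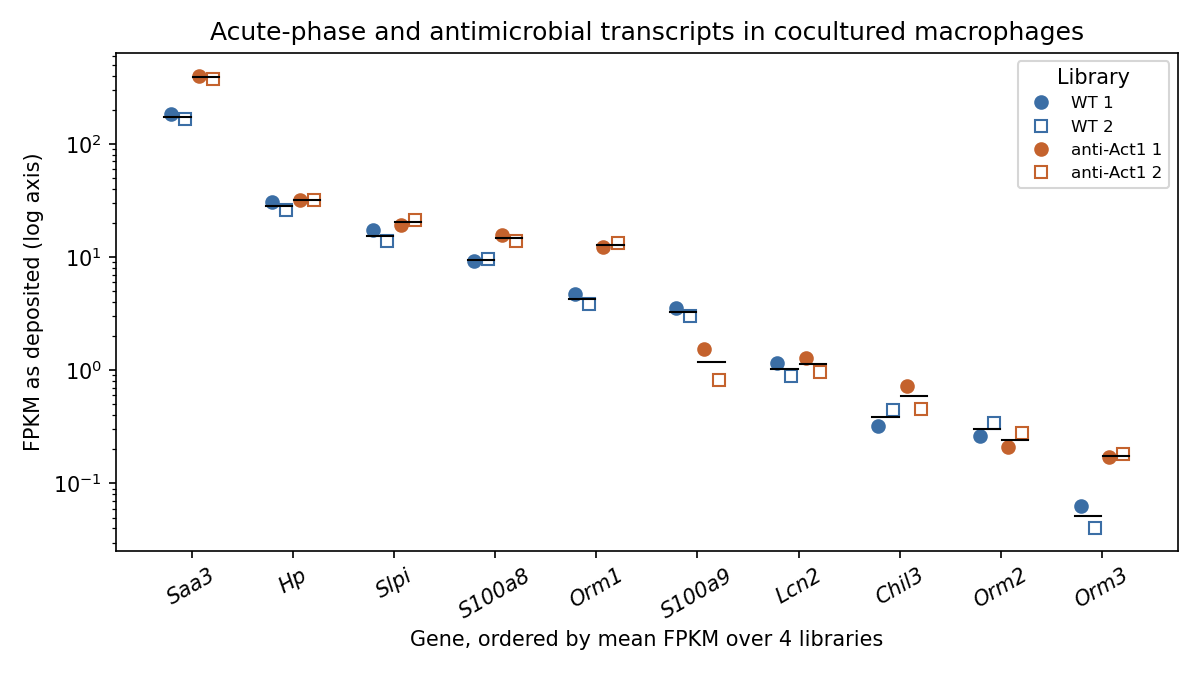
Deposited FPKM (log axis) of the 10 genes in each of the 4 libraries, ordered by mean level; blue marks are WT, orange marks anti-Act1, circles replicate 1, open squares replicate 2 and black lines group means. Saa3 lies above 165 FPKM in every library, and Orm3 stays below 0.182 FPKM.

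Saa3 made up 59.0% and 60.4% of the summed CPM of the 10 genes in the WT-labelled libraries and 72.9% and 71.4% in the anti-Act1-labelled ones. The sum was 163 and 144 CPM in the former and 292 and 283 CPM in the latter. Without Saa3 it was 66.8 and 56.8 against 79.0 and 81.1 CPM, so most of the difference of the sum came from this gene. In bulk RNA, more cells that make a transcript and more transcript per cell cannot be told apart.

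Of the 10 genes, 7 had an edgeR adjusted p under 0.05, and 20.7% of the 12494 genes did. Higher in the anti-Act1-labelled libraries were 6 (10.9% of all genes), and lower was 1 (9.76% of all genes). The groups did not overlap in CPM for 8 of the 10, against 57.1% of all genes. As the genes were chosen on this contrast, nothing is read from these shares. The median log2 fold change was 0.53 for the 10 genes and −0.0046 for all genes, and 80% of the 10 and 49% of all genes had a positive value.

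**Figure D2:**
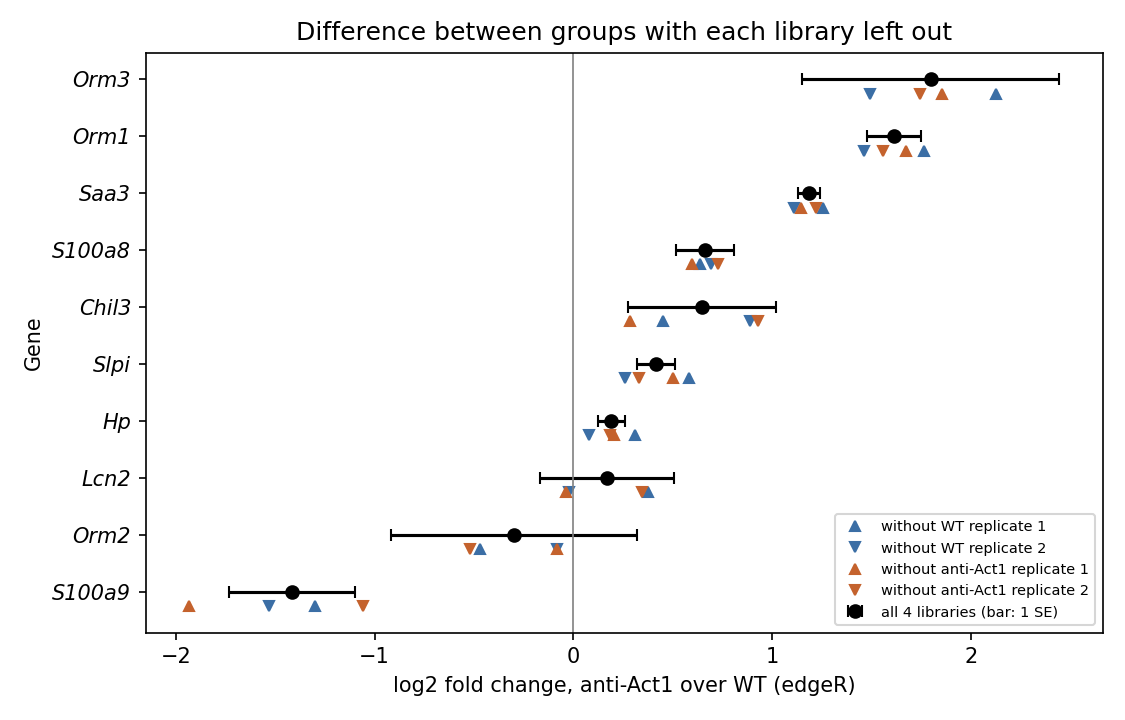
Log2 fold change of each gene, anti-Act1 over WT, from edgeR with all 4 libraries (black, bar 1 SE) and with each library left out in turn (triangles). Orm3, Orm1 and Saa3 stay above 1 and S100a9 below −1 in each of these fits, while Lcn2 lies on both sides of 0.

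Among the orosomucoids, Orm1 and Orm3 were higher in the anti-Act1-labelled libraries and Orm2 was not. Orm1, the main orosomucoid gene here, had 235 and 224 counts in the WT-labelled libraries and 596 and 571 in the anti-Act1-labelled ones. This was 3.64 and 2.95 against 9.65 and 10.5 CPM, a fitted difference of 3.06-fold (log2 fold change 1.61, SE 0.14). The lowest anti-Act1-labelled library thus lay well above the highest labelled WT, and the log2 fold change of Orm1 ranked 82 of 12494 from the highest. Orm3 had 8 and 6 against 21 and 20 counts, or 0.124 and 0.0791 against 0.340 and 0.366 CPM (log2 fold change 1.80, SE 0.65). Its groups did not overlap, but the exact 95% Poisson intervals, which cover counting error only, met at 3.45 to 15.8 counts for WT replicate 1 and 12.2 to 30.9 for anti-Act1 replicate 2. With any 1 library left out, its log2 fold change was 1.49 to 2.13. Orm3 is among the genes under the threshold in the main fit, but it was not called in 6 of 9 alternatives. Among these were the edgeR fits with no filter (adjusted p = 0.149) and with the replicate block (adjusted p = 0.0612). Orm2 had 13 and 20 against 10 and 12 counts, and its CPM of 0.201 and 0.264 against 0.162 and 0.220 overlapped between groups (log2 fold change −0.30, SE 0.62).

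The balance within the family moved with Orm1. The FPKM ratio of Orm1 to Orm2 was 18.0 and 11.1 in the WT-labelled libraries and 59.2 and 47.3 in the anti-Act1-labelled ones. The ratio of Orm1 to Orm3 was between 72.2 and 74.8 in 3 libraries and higher in WT replicate 2. The size of this ratio rests on the deposited length of 1983 bases for Orm3. It would be lower in every library with the transcript length of 773. The pattern of Orm3 over the 4 libraries lay nearest to that of Orm1 among 10892 genes with a mean of at least 1 CPM. Both genes were picked for being higher in this contrast, and Orm3 had few counts, so nothing is read from this likeness. Whether any of the few Orm3 counts are Orm1 reads was not tested.

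Saa3 and Hp are the most abundant acute-phase transcripts of the 10, and they differed by very unequal amounts. Saa3, the serum amyloid A made by macrophages, had 6198 and 6586 counts in the WT-labelled libraries and 13147 and 11029 in the anti-Act1-labelled ones. Its CPM were 95.9 and 86.8 against 213 and 202, a fitted difference of 2.27-fold (log2 fold change 1.18, SE 0.06), and its log2 fold change lay between 1.11 and 1.26 in all alternative analyses. Saa1, a liver-type serum amyloid A, had 0 and 0 against 4 and 4 counts and was not tested, and Saa2 and Saa4 were at 0 in every library. Hp was at 41.0 and 34.9 CPM in the WT-labelled libraries and at 43.0 and 43.5 CPM in the anti-Act1-labelled ones (log2 fold change 0.19, SE 0.07). WT replicate 1 lay close to both anti-Act1-labelled libraries, and the log2 fold change was 0.078 with WT replicate 2 left out and 0.31 with WT replicate 1 left out. Hp is among the genes under the threshold in the main fit, but it was not called in 8 of 13 alternatives, among them DESeq2 (adjusted p = 0.129).

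Lcn2 and Slpi are both released by neutrophils and by activated macrophages. Lcn2 was at 0.991 and 0.751 CPM in the WT-labelled libraries and at 1.10 and 0.842 CPM in the anti-Act1-labelled ones (log2 fold change 0.17, SE 0.34). Its groups overlapped, at 46 to 68 counts a library. Slpi was at 14.9 and 11.9 CPM against 16.8 and 18.9 CPM (log2 fold change 0.42, SE 0.09). All 4 libraries had 904 to 1037 counts of Slpi, and omitting WT replicate 2 lowered its log2 fold change to 0.26, while omitting WT replicate 1 raised it to 0.58. Slpi is among the genes under the threshold in the main fit, but it was not called in 2 of 13 alternatives. These were the fit without WT replicate 2 and the unfiltered limma fit (adjusted p = 0.136).

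The subunits of calprotectin differed in opposite directions. S100a8 had 233 and 284 counts in the WT-labelled libraries and 376 and 303 in the anti-Act1-labelled ones. This was 3.61 and 3.74 against 6.09 and 5.55 CPM, a fitted difference of 1.58-fold (log2 fold change 0.66, SE 0.15). S100a9 had 118 counts in each WT-labelled library and 50 and 24 in the anti-Act1-labelled ones. Its CPM were 1.83 and 1.55 against 0.810 and 0.440, so that the fitted level was 2.67-fold higher in the WT-labelled libraries (log2 fold change −1.42, SE 0.32). The anti-Act1-labelled libraries differed between themselves in S100a9, with a log2 fold change of −1.93 if anti-Act1 replicate 1 was left out and of −1.06 if anti-Act1 replicate 2 was. The log2 fold change of S100a9 ranked 12432 of 12494 from the highest. Per length, S100a8 exceeded S100a9 by 2.63 and 3.21 times in the WT-labelled libraries and by 10.0 and 16.8 times in the anti-Act1-labelled ones.

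**Figure D3:**
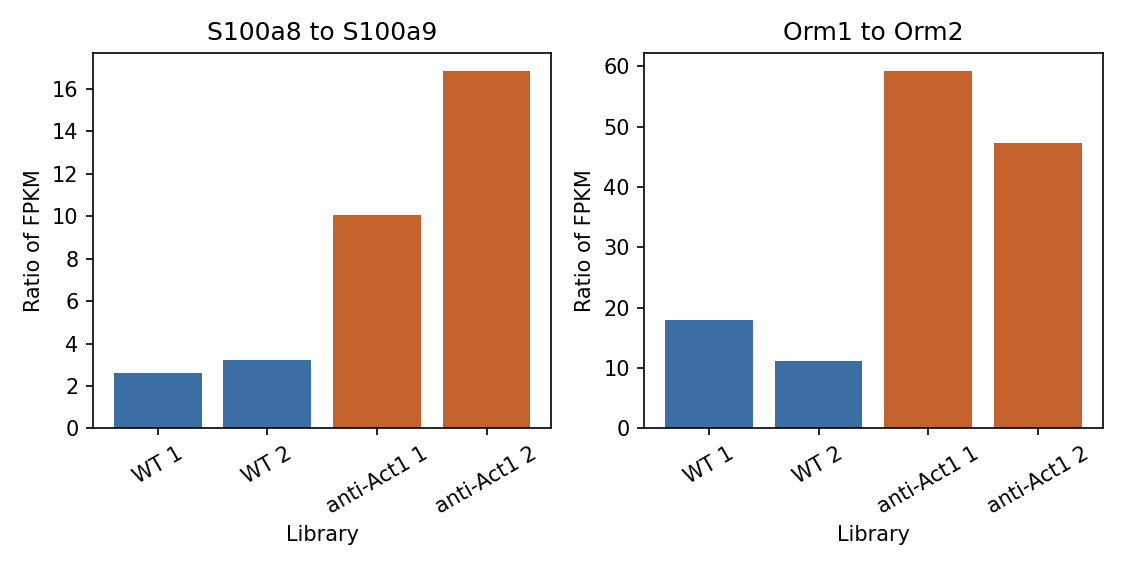
FPKM ratio of S100a8 to S100a9 (left) and of Orm1 to Orm2 (right) in each library; bars start at 0 and each is 1 library, blue for WT and orange for anti-Act1. The S100a8 to S100a9 ratio is 2.63 and 3.21 in WT and 10.0 and 16.8 in anti-Act1.

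S100a8 and S100a9 are both also markers of neutrophils and their precursors, though they differed in opposite directions here. The genes of that lineage were therefore set beside them. Of 20 such markers, 11 were tested, with 1 higher and 4 lower in the anti-Act1-labelled libraries and a median log2 fold change of −0.04. Their summed level was 677 and 691 against 672 and 658 CPM, almost all of it from the collagenase gene Mmp8 (519 to 541 CPM) and the G-CSF receptor gene Csf3r (98.2 to 139 CPM). The granule genes Ngp, Ltf and Retnlg, chosen after their values were seen, were the lower ones beside Csf3r. Other granule genes of the list did not pass, among them Camp, for cathelicidin, with 18 and 9 against 14 and 12 counts (log2 fold change 0.20), and Prtn3, for proteinase 3, with 24 and 62 against 36 and 33 counts (−0.019). Ngp, for neutrophilic granule protein, fell from 43 and 47 counts to 11 and 5 (edgeR log2 fold change −2.21 ± 0.54 SE, adjusted p = 0.00181). Ltf, for lactoferrin, fell from 41 and 61 counts to 17 and 11 (edgeR log2 fold change −1.58 ± 0.47 SE, adjusted p = 0.0115). Retnlg, for a resistin-like protein of granulocytes, had 22 and 19 against 2 and 0 counts and was at least 5.71-fold lower, measured against a floor of 3 counts per library. Without anti-Act1 replicate 2, Ngp (adjusted p = 0.0635), Ltf (0.125) and Retnlg (0.0806) lost their edgeR calls, and Ltf also did without WT replicate 2 (0.144). With Retnlg at that bound the median of the list is −0.04 as well, which was fixed in advance, because Retnlg stays below the median either way.

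Other defining neutrophil genes were near the limit of detection. Mpo had 4 and 13 counts in the WT-labelled libraries and 0 in both others, Ly6g had 5 and 0 against 0 and 0, and Stfa2, Stfa3 and Ms4a3 were at 0 throughout. Ctsg had 0 and 0 against 4 and 0, Fcnb 0 and 2 against 0 and 2, and Stfa2l1 1 and 0 against 2 and 0, all named after the values were seen. Cebpe, also on this list, had a log2 fold change of 0.73 and did not pass (edgeR adjusted p = 0.0558). Elane, for neutrophil elastase, had 12 and 15 against 2 and 9 counts (edgeR log2 fold change −0.99 ± 0.77 SE, adjusted p = 0.415). Csf3r fell by 0.48 on the log2 scale (SE 0.05, edgeR adjusted p = 6.31e-10), while the gelatinase gene Mmp9 rose by 0.96 (SE 0.08, edgeR adjusted p = 9.95e-13). Of 8 monocyte markers, 2 were higher and 3 lower, with Ly6c2 at 3.06 and 2.13 against 5.75 and 4.89 CPM and Ccr2 at 5.71 and 5.43 against 4.03 and 2.88 CPM, the latter with an edgeR adjusted p of 0.0657 without anti-Act1 replicate 2. The part that other myeloid cells have in the levels of S100a8 and S100a9 was not tested.

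**Figure D4:**
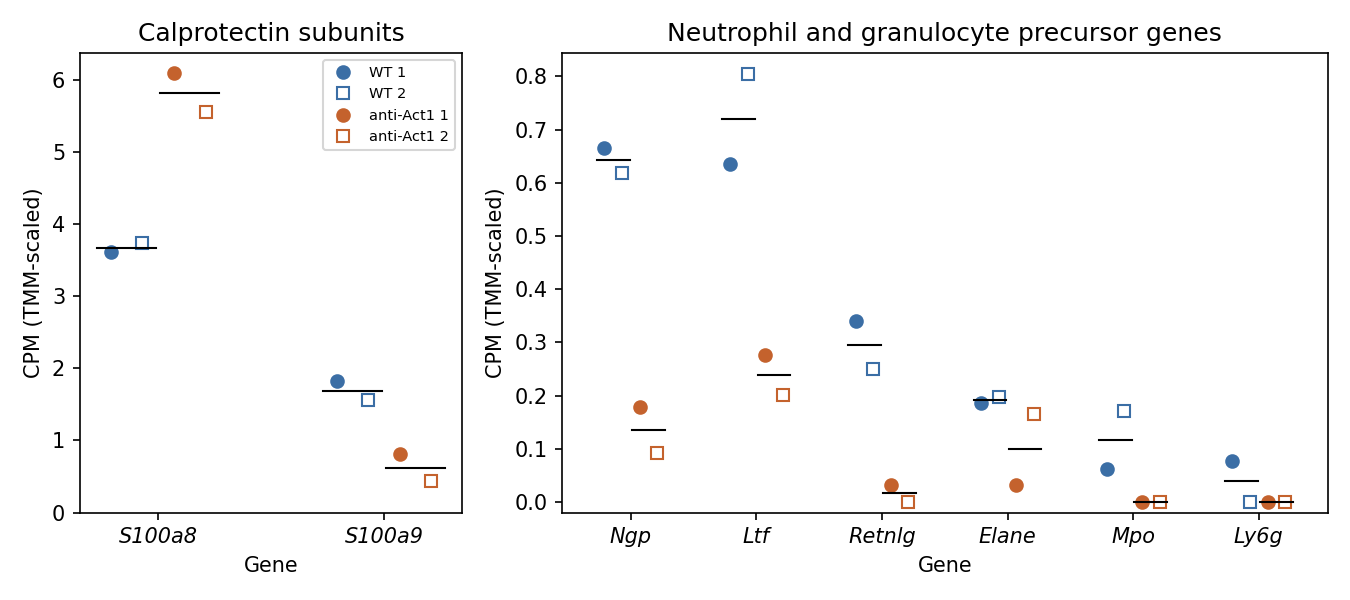
CPM of S100a8 and S100a9 (left) and of 6 of the 20 neutrophil and granulocyte precursor markers (right) in each library. Blue is WT, orange anti-Act1, circles replicate 1, open squares replicate 2, and lines are group means. The 6 were picked from the list, whose tested genes had a median log2 fold change of −0.04. Mmp9, which was higher, and Camp and Prtn3, which did not pass, are not shown. S100a8 is higher and S100a9 lower in anti-Act1, and each of Ngp, Ltf and Retnlg is lower in both anti-Act1-labelled libraries than in either labelled WT.

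Chil3 had 32 and 51 counts in the WT-labelled libraries and 69 and 39 in the anti-Act1-labelled ones. Its CPM of 0.495 and 0.672 against 1.12 and 0.714 did not overlap, but the nearest libraries of the groups were almost level (log2 fold change 0.65, SE 0.37). Its close copy Chil4, 94.4% identical in coding sequence, was at 0 in every library. In the list of other chitinase-like and alternative activation genes, 8 of 18 were tested, with 1 higher and 2 lower and a median log2 fold change of −0.16. Arg1, for arginase, rose (0.64), and the scavenger and lectin receptor genes Cd163 (−1.51, edgeR adjusted p = 0.00245) and Mrc1 (−0.63, edgeR adjusted p = 5.57e-14) fell, while Retnla and Chit1 were at 0 throughout.

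The genes whose pattern over the 4 libraries lay nearest to each member were found by the root mean square difference of centred log2 CPM. For Orm1 these were Bcar1 (0.07), Adamts1 (0.12) and Syde1 (0.12), and only 1 gene lay within 0.1. For Saa3 they were Maff (0.05), Rap1gap (0.06) and Smtnl2 (0.06), with 18 genes within 0.1. S100a8 lay nearest to Lims2 (0.02), Mt2 (0.03) and Gpr137c (0.03), with 147 genes within 0.1. S100a9 had 0 genes within 0.1, and its nearest were Siglecf (0.19), Elovl6 (0.21) and Vcam1 (0.22). With 4 libraries in 2 groups, likeness mostly reflects a similar fold change, as the 1899 genes within 0.1 of Hp show.

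Companion genes of the same families gave a mixed picture. The counts of every list in this report stand beside 10.9% of all genes called higher and 9.76% called lower. Of 26 other acute-phase genes, 7 were tested, with 2 higher, 0 lower and a median log2 fold change of 0.25. C3, the central complement component, rose from 173 and 175 CPM to 326 and 354 CPM (edgeR log2 fold change 0.97 ± 0.05 SE, adjusted p = 6.04e-20). Il1rn, for the antagonist of the IL-1 receptor, rose by 0.25 (edgeR adjusted p = 1.68e-04). Of the 26, 9, among them Serpina3n and Steap4, were at 0 in every library. Of 15 other secreted antimicrobial genes, 7 were tested, with 1 higher and 2 lower. The lysozyme gene Lyz1 rose from 710 and 827 counts to 1033 and 979 counts (edgeR log2 fold change 0.66, adjusted p = 1.44e-07), and Ltf and Ngp fell as given above. Lyz2, the main macrophage lysozyme at 15811 to 17736 CPM, did not pass (log2 fold change 0.096, and 0.14 with a call when WT replicate 1 was left out; edgeR adjusted p = 0.162). Of 11 other S100 genes, 6 were tested, with 1 higher and 0 lower. That gene was S100a1 (0.18, edgeR adjusted p = 0.019), whose adjusted p was 0.0698 to 0.2 without WT replicate 2 or either anti-Act1 replicate. S100a6 and S100a11, more abundant than both calprotectin subunits per length, each had a log2 fold change of 0.14 and did not pass, but they did without WT replicate 1 (0.23 and 0.18), and S100a11 also did with DESeq2 (adjusted p = 0.0436) and with a minimum of 10 counts (0.0482).

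Receptors and binding partners of the 10 proteins moved in both directions. Of 15 listed, 14 were tested, with 5 higher, 4 lower and a median log2 fold change of −0.02. Of the receptors reported to bind S100a8 and S100a9 proteins, Tlr4 was at 260 and 286 against 230 and 217 CPM and fell by 0.29 (edgeR adjusted p = 4.06e-05), Cd33 fell by 0.19 (edgeR adjusted p = 0.0277, and 0.0664 to 0.212 with any 1 library left out), and Bsg rose by 0.39 (edgeR adjusted p = 3.65e-08). Ager, another of these receptors, was low at 0.991 and 1.32 against 0.955 and 1.03 CPM and did not pass (edgeR log2 fold change −0.23, adjusted p = 0.684). Among receptors that serum amyloid A can engage, Tlr2 rose from 194 and 188 CPM to 264 and 257 CPM (edgeR log2 fold change 0.45, adjusted p = 1.56e-09). Fpr2, a formyl peptide receptor, rose by 0.59 (edgeR adjusted p = 2.85e-08) and Fpr1 by 0.42 (edgeR adjusted p = 5.87e-06), while P2rx7, the ATP-gated channel, fell by 0.36 (edgeR adjusted p = 1.50e-06). In the haptoglobin route, Cd163, which takes up haptoglobin with haemoglobin, fell from 79 and 78 counts to 28 and 18, and Hmox1, the haem-degrading enzyme, rose from 694 and 669 CPM to 953 and 959 CPM (edgeR log2 fold change 0.49, adjusted p = 7.08e-11).

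Of 22 regulators that act on acute-phase genes, all were tested, with 5 higher, 4 lower and a median log2 fold change of −0.01. The C/EBP genes Cebpa (−0.31, edgeR adjusted p = 1.24e-05), Cebpb (−0.89, edgeR adjusted p = 1.09e-09) and Cebpd (−0.30, edgeR adjusted p = 0.0104) fell. Cebpb differed widely between the WT-labelled libraries, at 351 and 212 CPM, against 170 and 133 CPM, with log2 fold changes of −0.48 and −1.21 when WT replicate 1 or 2 was omitted, and it was not called with DESeq2 (adjusted p = 0.118) or the unfiltered limma fit (0.131). Cebpd was not called in those fits either (0.0608 and 0.104), nor without WT replicate 1 (−0.24) or anti-Act1 replicate 1 (−0.22). Cebpe, a factor of granule gene expression in neutrophil precursors, was at 1.08 and 0.922 against 1.62 and 1.70 CPM (edgeR log2 fold change 0.73 ± 0.28 SE, adjusted p = 0.0558), and it passed in 5 of 13 alternatives, with adjusted p-values of 0.0151 to 0.0401. Nfkbiz, for the IκBζ protein that Lcn2 induction depends on, rose by 0.50 (edgeR adjusted p = 5.25e-07), and Zc3h12a, for a ribonuclease that cuts inflammatory mRNAs, rose by 0.45 (edgeR adjusted p = 1.52e-07). Il17ra, for a receptor chain that signals through Act1, was at 39.9 and 41.0 against 38.1 and 40.1 CPM (edgeR adjusted p = 0.657). Il17rc, the other IL-17 receptor gene of the list, had only 15 and 19 against 19 and 12 counts (edgeR adjusted p = 0.909).

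Act1 carries the signal of IL-17, and Lcn2 is a textbook IL-17 target, so other such targets were listed. Of 18, 13 were tested, with 10 higher, 2 lower and a median log2 fold change of 0.63, beside 0.17 for Lcn2. Cxcl1, a neutrophil-attracting chemokine, rose from 7.23 and 7.97 CPM to 21.0 and 20.7 CPM (edgeR log2 fold change 1.46 ± 0.09 SE, adjusted p = 3.17e-17). The lower ones were the monocyte chemokines Ccl2 (−0.85) and Ccl7 (−0.77), named after their values were seen. Many of these genes also respond to TNF, IL-1 and bacterial products, and no library was treated with IL-17.

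**Figure D5:**
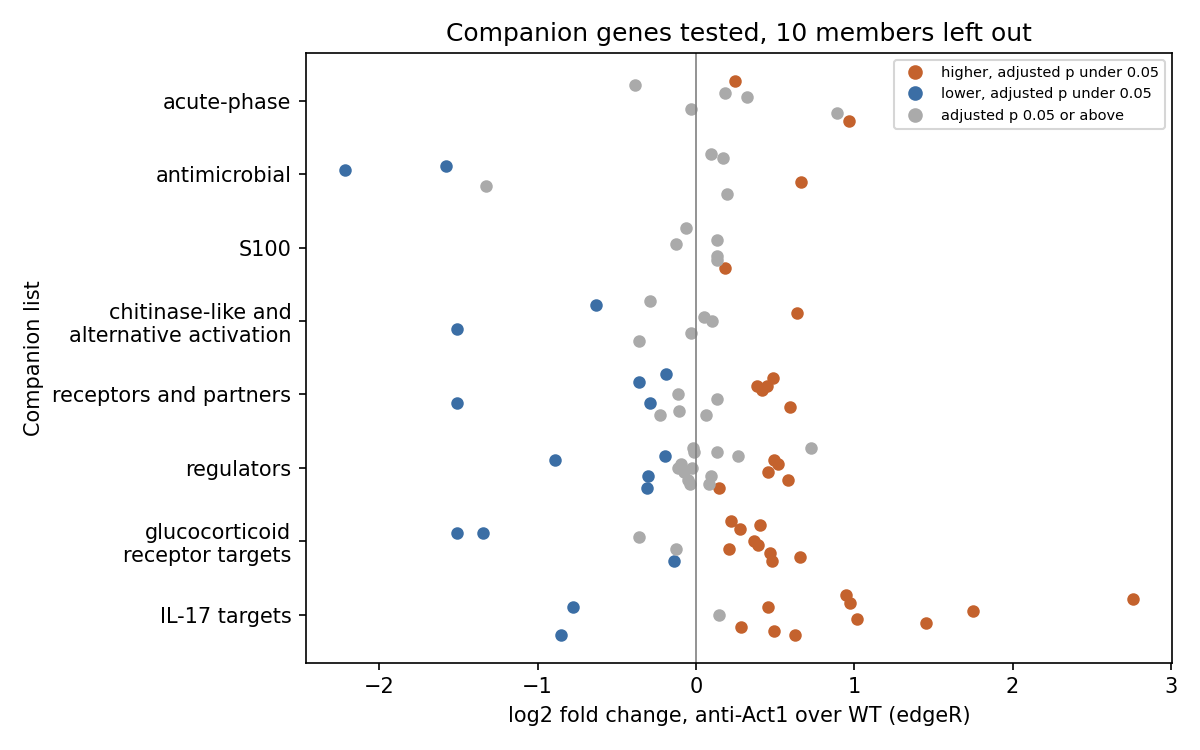
Log2 fold change, anti-Act1 over WT, of the tested genes in each companion list, 1 point a gene, with the 10 members left out; orange points were higher and blue points lower at an edgeR adjusted p under 0.05, grey points did not pass. In the IL-17 target list 10 of 13 points are orange and 2 are blue, while the receptor list has 5 orange and 4 blue points.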

How the data were processed

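RNA-seq libraries of 2 WT and 2 anti-Act1 macrophage samples, grouped by their labels, were analysed. Per the study's methods, the authors removed reads with adapters or of low quality and aligned read pairs with TopHat. The labels also name Bowtie 0.12.2, HTSeq 0.6.1 and the builds mm8 and mm10, without saying what each was used for. The authors deposited whole read counts per gene, not normalized, and FPKM. The annotation and the strand setting are not given in the sources used here.

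Counts were fitted with edgeR 4.0.16 (R 4.3.3) after filterByExpr and TMM normalization, with group as the sole term by its quasi-likelihood F test (two-sided), and p-values were Benjamini-Hochberg adjusted over 12494 genes at a threshold of 0.05. The SE is the absolute log2 fold change divided by the square root of F. The members and gene lists were chosen with earlier results of these data known. Named were the 10 members, Traf3ip2, genes of the regulator and receptor lists, of each other list up to 4 with the largest change (adjusted p under 0.05, mean of at least 1 CPM, no overlap) and the 2 most abundant, and the 3 genes nearest in pattern to each member. Of these, not all are printed, and exceptions are marked. The script was tested on simulated counts.

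Alternatives were DESeq2 1.42.0, its size factors, a minimum of 10 counts, no filter, no composition normalization, a replicate block, omission of each library in turn, and limma 3.58.1 on log2-transformed deposited FPKM (pseudocount 1 or 0.1, and 1 with no filter). The labels do not say whether equal replicate numbers pair the samples, and the main fit used no pairing. Replicates within a group differed by more than counting noise. The depth of each library sets a floor of 3 counts at 0.0395 to 0.0549 CPM, which covers counting error only. Sequences came from RefSeq and GENCODE M21 and were compared with Biopython 1.88.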

Additional observations from a re-analysis of the deposited data

How the results depend on the processing

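The number of the 10 genes called was 7, and it was 4 to 6 with each library left out (4 without WT replicate 2) and 5 with DESeq2, which gave Orm2 and Orm3 no adjusted p. These counts describe genes chosen on this contrast and lend it no support. Lcn2, not called, lay between −0.039 (anti-Act1 replicate 1 left out) and 0.37 (WT replicate 1 left out), with −0.023 without WT replicate 2. Camp and Prtn3, also not called, ranged from −0.32 to 0.90 and from −0.46 to 0.67 with 1 library omitted, and Prtn3 was at 0.059 with the replicate block and 0.0044 in the unfiltered limma fit. Over all genes, 2586 were called, with 1671 to 2543 when a library was left out (1712 and 1671 without anti-Act1 replicates 1 and 2) and 1092 in the unfiltered limma fit to log2(FPKM + 1). The cause was not tested. The companion count was 47 of 87 tested, beside 20.7% of all genes, and it lay between 36 and 50. The companion lists were chosen with earlier results known, so nothing is read from this share. In ratios examined after seeing the data, leaving out a library gave a group difference in log2 ratio of −2.53 to −1.79 for S100a9 to S100a8 and of 1.56 to 2.25 for Orm1 to Orm2. With the replicate block, 2406 genes, 6 members and 44 companions were called; the labels do not say that equal numbers share a batch, and same-numbered deviations correlated at −0.03. Orm2, Orm3, Lcn2 and Chil3 had under 100 counts in every library, so counting error is a larger part of their values than for Saa3. The same holds for S100a9 in the anti-Act1-labelled libraries, at 50 and 24 counts.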

Other observations

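Orm1, Hp and Saa3 are known to respond to glucocorticoids in other tissues, and 14 other targets of the glucocorticoid receptor were listed. All 14 were tested, with 9 higher and 3 lower in the anti-Act1-labelled libraries and a median log2 fold change of 0.25. Tsc22d3, the glucocorticoid-induced leucine zipper, rose from 119 and 116 CPM to 163 and 166 CPM (edgeR log2 fold change 0.48 ± 0.05 SE, adjusted p = 4.62e-10). The metallothionein gene Mt2 rose from 8.74 and 9.57 CPM to 15.1 and 13.9 CPM (log2 fold change 0.66), and the transcription factor gene Klf4 rose by 0.47. Zbtb16, also a classical target, fell from 213 and 169 counts to 73 and 53 (edgeR log2 fold change −1.35 ± 0.24 SE, adjusted p = 2.49e-05), and Cd163, another, was lower as well. Anxa1 was lower too (edgeR log2 fold change −0.14, adjusted p = 0.0427). Fkbp5, named after its values were seen, did not pass (edgeR log2 fold change −0.36, adjusted p = 0.175). Nr3c1, the gene of the receptor itself, was at 130 and 136 against 149 and 135 CPM (edgeR adjusted p = 0.251). Several of these genes also respond to stress and to inflammatory signals, and no library was treated with a glucocorticoid.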
